A study of Mus musculus with 12 samples.

Results

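Sialic acid synthesis, transfer and removal were followed in Sp37A3 cells through 10 genes taken by name from a table of 55401 genes. They were Gne, Nans and Cmas, which make and activate sialic acid, Slc35a1, which carries it into the Golgi, St3gal1, St3gal2, St3gal4, St3gal6 and St6gal1, which attach it to glycans, and Neu1, which removes it. All 10 passed the expression filter, as did 14079 genes of the table. Sp37A3 is a dendritic cell (DC) line from mouse spleen, grown with GM-CSF and M-CSF. CtrV cells had been transduced with an empty lentiviral vector. EKO cells had been transduced with a CRISPR/Cas9 vector directed at Siglece, the gene of the inhibitory receptor Siglec-E, and were a pool of several sorted clones. CtrV and EKO cells were each left unpulsed or pulsed with ovalbumin (OVA), which gave 4 groups of 3 cultures, numbered 1 to 3. All 4 groups received lipopolysaccharide (LPS) and were processed over 24 hours, so no group shows the cells at rest.

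Sialic acid is the sugar that Siglec receptors bind at the ends of cell surface glycans. It is built in the cytosol from an amino sugar, coupled to CMP in the nucleus, brought into the Golgi and attached there by sialyltransferases, each of which prefers certain acceptor chains and makes a certain linkage. Sialidases take it off again, mainly in lysosomes, and the free sugar can be used anew. Dendritic cells change their surface sialylation as they mature, and the study compared cells with and without a receptor for that sugar. Only mRNA was measured here, neither sialic acid nor enzyme activity.

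Siglece mRNA, the check on the targeted gene, lay at 150.2 to 163 CPM (counts scaled to a common library size, after TMM correction for library composition) in CtrV libraries and at 166 to 235 CPM in EKO libraries. It was thus not lower in EKO libraries, and these are called EKO-labelled. According to the paper, the clones in the pool showed little or no Siglec-E when screened. Protein was not measured in these libraries, and the mRNA level alone does not show if the receptor was present. Library totals were 27116201 to 39698572 counts, and 3 counts, taken as the smallest detectable level, corresponded to 0.0785 to 0.110 CPM. Along the second principal component, which held 7.05% of the variance, both EKO-labelled cultures numbered 1 stood apart at 19.1 and 20.9, against -18.7 to -0.97 in the other 4 EKO-labelled libraries. The 11 dendritic cell markers were all detected, with a summed level of 24394 to 26576 CPM in CtrV and 24809 to 26674 CPM in EKO-labelled libraries. Most of this sum was Cd74 (13959 to 18270 CPM), so it does not show that single markers were alike. H2-Aa (3521 to 4069 against 2520 to 2785 CPM), H2-Ab1, Irf8 (178 to 295 against 80.1 to 118 CPM) and Batf3 were higher in every EKO-labelled library. Id2 was lower in each of them (255 to 290 against 456 to 484 CPM), and the other markers overlapped. Flt3 was low at 1.00 to 7.85 CPM, as was Batf3 at 2.45 to 14.8 CPM. Macrophage markers (5 of 5 detected) summed to 739 to 864 CPM in CtrV and 884 to 1014 CPM in EKO-labelled libraries, and their part in the results was not tested. The other cell types had few or no counts, with no T cell, B cell, NK cell, fibroblast, erythroid or neutrophil list above 3.57 CPM in sum, apart from the epithelial list, in which Cdh1 stood at 551 to 636 CPM in CtrV and 152 to 183 CPM in EKO-labelled libraries while Krt8 and Krt18 were at or near 0.

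Promoter sequence from RefSeq (GRCm38.p6) was at hand for 7 of the 10 genes, with 11 start sites among them. It was lacking for Nans, St3gal1 and St3gal2, so nothing below covers these genes. The 2 stretches below are shown because they belong to a gene that was higher in every EKO-labelled library (St3gal4) and to one that differed in neither comparison of the lines (Neu1). Both are written 5′ to 3′ on the strand of the gene, and capitals mark the GC box, GGGCGG or its reverse complement. The stretch of St3gal4 is chr9:35116874-35117114 on the minus strand, and that of Neu1 is chr17:34931003-34931252 on the plus strand. The St3gal4 stretch lies inside the annotated gene, whose 5′ end is at 35119268. Exons of St3gal4 and of 4930581F22Rik overlap the 250 bases before this start. Which start these cells use was not tested.
St3gal4: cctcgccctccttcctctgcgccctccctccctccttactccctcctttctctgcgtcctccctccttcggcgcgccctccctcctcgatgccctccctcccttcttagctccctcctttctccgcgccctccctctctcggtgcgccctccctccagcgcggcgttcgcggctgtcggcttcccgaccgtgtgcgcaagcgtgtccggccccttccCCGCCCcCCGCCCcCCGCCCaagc
Neu1: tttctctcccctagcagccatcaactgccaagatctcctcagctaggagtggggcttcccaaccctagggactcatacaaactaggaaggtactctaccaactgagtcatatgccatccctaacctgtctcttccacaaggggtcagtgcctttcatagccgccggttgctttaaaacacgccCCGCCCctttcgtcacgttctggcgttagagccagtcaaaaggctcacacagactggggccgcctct
The St3gal4 stretch held 3 GC boxes side by side, and the 250 bases before this start were 72.8% G and C, against a median of 52.4% before all starts. The Neu1 stretch held 1 GC box and was 54.4% G and C. Counted on both strands in windows of 250 bases before and 50 after the start, the GC box was found in 6 of the 11 windows and in 35.7% of all 32851 windows. The letters AANNGAAA, a core of sites for interferon regulatory factors, were found in 3 of the 11 windows, those of Cmas and Gne, and in 23.9% of all windows. A GC box was thus present beside genes with and without a difference between the lines.

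In OVA-pulsed cells the α2,3-sialyltransferase mRNAs were higher and the sialic acid synthase mRNA lower in EKO-labelled cells, set against CtrV cells. Of the 10 genes, 5 were higher (St3gal1, St3gal2, St3gal4, St3gal6 and St6gal1), 1 was lower (Nans) and 4 were not called (edgeR quasi-likelihood test, adjusted p under 0.05 over all tested genes). The lines differed widely, with 25.1% of all tested genes higher and 21.9% lower, so a call by itself did not set a gene apart. In unpulsed cells 5 genes were higher (Slc35a1, St3gal1, St3gal2, St3gal4 and St3gal6) and again only Nans was lower, against 24.5% and 21.9% of all tested genes. Averaged over pulsing, 6 genes were higher and 1 lower, against 31.3% and 29.1% of all tested genes. The median log2 fold change of the 10 genes was 0.38 in OVA-pulsed and 0.12 in unpulsed cells, and that of all tested genes was 6e-04 and 1e-04. With OVA the middle genes were Slc35a1 (0.10) and St3gal4 (0.66), so no gene lay near that median. Without OVA they were St6gal1 (0.04, against 0.84 with OVA) and Slc35a1 (0.20). All 6 EKO-labelled libraries lay above all 6 CtrV libraries for 4 of the 10 genes, the 4 St3gal genes, and below them for Nans alone. Among all tested genes, 18.9% lay wholly above and 16.6% wholly below. A difference in mRNA per cell and a difference in the share of cells that express a gene cannot be told apart in these bulk libraries.

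**Figure D1:**
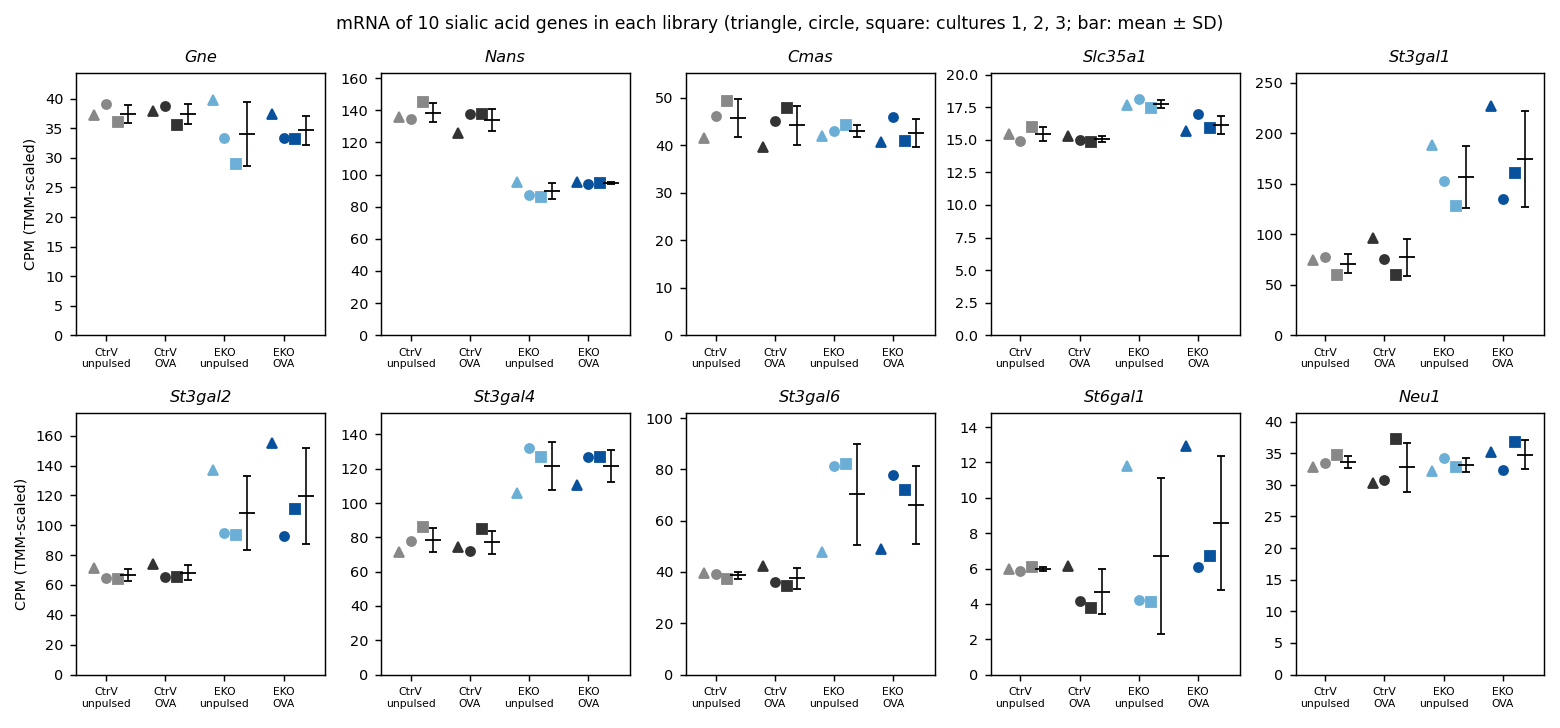
Level of each of the 10 genes in every library, in CPM on axes that start at 0, by group; triangles, circles and squares are cultures 1, 2 and 3, and the bar beside them is the mean ± SD (n = 3). The 4 St3gal genes are higher and Nans is lower in every EKO-labelled library, and the triangles of EKO-labelled cells stand apart for the St3gal genes and St6gal1.

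Gne (ENSMUSG00000028479; mm10 chromosome 4, 44034075 to 44084177, minus strand) encodes the enzyme that starts sialic acid synthesis by epimerizing UDP-GlcNAc and phosphorylating the resulting ManNAc. In unpulsed CtrV cells its level was 37.2, 39.1 and 36.0 CPM, and in unpulsed EKO-labelled cells it was 39.8, 33.4 and 29.0 CPM in cultures 1, 2 and 3. With OVA it was 37.9, 38.8 and 35.6 CPM in CtrV and 37.5, 33.3 and 33.2 CPM in EKO-labelled cells. The groups overlapped because of EKO-labelled culture 1, which was as high as CtrV cells, while cultures 2 and 3 were lower than all CtrV libraries. The difference was not called, with a log2 fold change of -0.11 (95% interval -0.28 to 0.06, adjusted p = 0.25) in OVA-pulsed and -0.15 (-0.32 to 0.02, adjusted p = 0.14) in unpulsed cells. Without both EKO-labelled cultures 1, Gne was called lower in unpulsed cells (log2 fold change -0.26, adjusted p = 0.0071) but not in OVA-pulsed cells (-0.17, adjusted p = 0.055). Averaged over pulsing the value was -0.13 (adjusted p = 0.06), and it passed the threshold in 6 of 21 other settings, among them upper-quartile normalization (-0.17, adjusted p = 0.019) and the fits without culture 1 of unpulsed CtrV (adjusted p = 0.026), OVA-pulsed CtrV (adjusted p = 0.043) or unpulsed EKO-labelled cells (adjusted p = 0.0062).

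Nans (ENSMUSG00000028334; chromosome 4, 46489248 to 46503632, plus strand) encodes the synthase that joins ManNAc-6-phosphate to phosphoenolpyruvate. Its level was 136, 134 and 145 CPM in unpulsed CtrV and 126, 138 and 138 CPM in OVA-pulsed CtrV cells. EKO-labelled cells had 95.1, 87.4 and 85.8 CPM unpulsed and 95.4, 93.9 and 94.5 CPM with OVA. No EKO-labelled library reached the lowest CtrV library, and the 3 OVA-pulsed EKO-labelled cultures lay within 2 CPM of each other. Nans fell by 0.50 on the log2 scale in OVA-pulsed cells (SE 0.06, adjusted p = 5.7e-05), to 0.707 of the CtrV level, and by 0.63 in unpulsed cells (SE 0.06, adjusted p = 1.2e-05), to 0.646 of it. In all 6 same-numbered pairs the EKO-labelled culture was lower, by 0.40 to 0.76 on the log2 scale. Of the exon bases of Nans, 29.6% are overlapped by Trim14 on the opposite strand, and no source used here says if reads were assigned by strand. Trim14 went the other way, from 19.1 to 24.6 CPM in CtrV to 29.9 to 43.8 CPM in EKO-labelled libraries.

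Cmas (ENSMUSG00000030282; chromosome 6, 142756686 to 142775714, plus strand) encodes the nuclear enzyme that couples sialic acid to CMP, the form that sialyltransferases use. Its level spanned 39.6 to 49.4 CPM in the 6 CtrV libraries (median 45.7) and 40.8 to 45.9 CPM in the 6 EKO-labelled libraries (median 42.4), which lay inside the CtrV range. The log2 fold change was -0.05 with OVA (95% interval -0.19 to 0.09, adjusted p = 0.53) and -0.08 without (-0.22 to 0.06, adjusted p = 0.30). These intervals reach from a fall of 0.22 to a rise of 0.09 on the log2 scale, and they hold for this fit only. Without the replicate block the SE was 0.084 with OVA and 0.085 without, against 0.063 for both here.

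Slc35a1 (ENSMUSG00000028293; chromosome 4, 34663257 to 34687438, minus strand) encodes the transporter of CMP-sialic acid in the Golgi membrane. Unpulsed CtrV cells had 15.4, 14.9 and 16.0 CPM, and unpulsed EKO-labelled cells had 17.7, 18.1 and 17.5 CPM. With OVA, CtrV cells had 15.3, 15.0 and 14.9 CPM and EKO-labelled cells 15.6, 17.0 and 15.9 CPM. EKO-labelled cultures were higher in all 6 pairs, by 0.03 to 0.28 on the log2 scale. The rise was called in unpulsed cells (log2 fold change 0.20, SE 0.06, adjusted p = 0.016) and not in OVA-pulsed cells (0.10, 95% interval -0.03 to 0.23, adjusted p = 0.17). It was the smallest of the called changes, and the call in unpulsed cells was lost in 7 of 22 other settings, with an adjusted p of up to 0.11, among them those without culture 2 of unpulsed CtrV (adjusted p = 0.082) or unpulsed EKO-labelled cells (adjusted p = 0.056).

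St3gal1 (ENSMUSG00000013846; chromosome 15, 67102875 to 67176830, minus strand) encodes an α2,3-sialyltransferase that caps the galactose of core 1 O-glycans. It showed the largest change of the 10 genes. Unpulsed CtrV cells had 74.5, 77.6 and 60.1 CPM and unpulsed EKO-labelled cells 189, 153 and 128 CPM. With OVA, CtrV cells had 96.7, 75.0 and 59.9 CPM and EKO-labelled cells 227, 135 and 160.4 CPM. The lowest EKO-labelled library was above the highest CtrV library, and EKO-labelled culture 1 was the highest under both treatments. The log2 fold change was 1.18 with OVA (SE 0.12, adjusted p = 2.5e-05), a 2.26-fold level, and 1.13 without (SE 0.12, adjusted p = 3.7e-05), a 2.19-fold level. It was the only one of the 10 genes whose change exceeded 1 on the log2 scale.

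St3gal2 (ENSMUSG00000031749; chromosome 8, 110919922 to 110972480, plus strand) encodes the relative that sialylates the same terminal disaccharide on O-glycans and on gangliosides. Unpulsed CtrV cells had 71.5, 64.4 and 64.2 CPM and unpulsed EKO-labelled cells 137, 94.8 and 93.2 CPM. With OVA the levels were 73.9, 65.4 and 65.1 CPM in CtrV and 155, 92.5 and 111 CPM in EKO-labelled cells. All EKO-labelled libraries were above all CtrV libraries, again with culture 1 highest. St3gal2 rose by 0.79 on the log2 scale with OVA (SE 0.10, adjusted p = 0.00013) and by 0.68 without (SE 0.10, adjusted p = 0.00039). Without both EKO-labelled cultures 1 the rise was 0.64 and 0.55 (adjusted p = 7.6e-05 and 0.00018).

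St3gal4 (ENSMUSG00000032038; chromosome 9, 35046576 to 35119268, minus strand), whose promoter stretch with 3 GC boxes is printed above, encodes the enzyme that puts α2,3-linked sialic acid on lactosamine chains, among them selectin ligands. CtrV cells had 71.7, 77.7 and 85.8 CPM unpulsed and 74.6, 71.8 and 84.9 CPM with OVA. EKO-labelled cells had 106, 132 and 127 CPM unpulsed and 111, 127 and 127 CPM with OVA. The lines did not overlap, and here EKO-labelled culture 1 was the lowest of its group under both treatments. The log2 fold change was 0.66 with OVA (SE 0.07, adjusted p = 2.1e-05) and 0.63 without (SE 0.07, adjusted p = 3e-05), and the 6 pairs spanned 0.56 to 0.82. Of its exon bases, 14.1% are overlapped on the opposite strand by 4930581F22Rik, which did not exceed 0.837 CPM in any library.

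St3gal6 (ENSMUSG00000022747; chromosome 16, 58468125 to 58524243, minus strand) encodes a further α2,3-sialyltransferase of lactosamine chains. CtrV cells had 39.8, 39.1 and 37.1 CPM unpulsed and 42.3, 36.1 and 34.5 CPM with OVA, against 47.6, 81.2 and 82.2 CPM and 48.8, 77.8 and 72.0 CPM in EKO-labelled cells. Cultures 2 and 3 of EKO-labelled cells exceeded the same-numbered CtrV cultures by 1.06 to 1.15 on the log2 scale, while culture 1 exceeded its CtrV partner by only 0.21 and 0.26 on the log2 scale. The log2 fold change was 0.78 with OVA (SE 0.19, adjusted p = 0.0058) and 0.84 without (SE 0.19, adjusted p = 0.0042). Without both EKO-labelled cultures 1 it was 1.05 and 1.14. On the opposite strand, Dcbld2 overlaps 26.0% of its exon bases and was not called in OVA-pulsed cells (log2 fold change -0.15, adjusted p = 0.16).

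**Figure D2:**
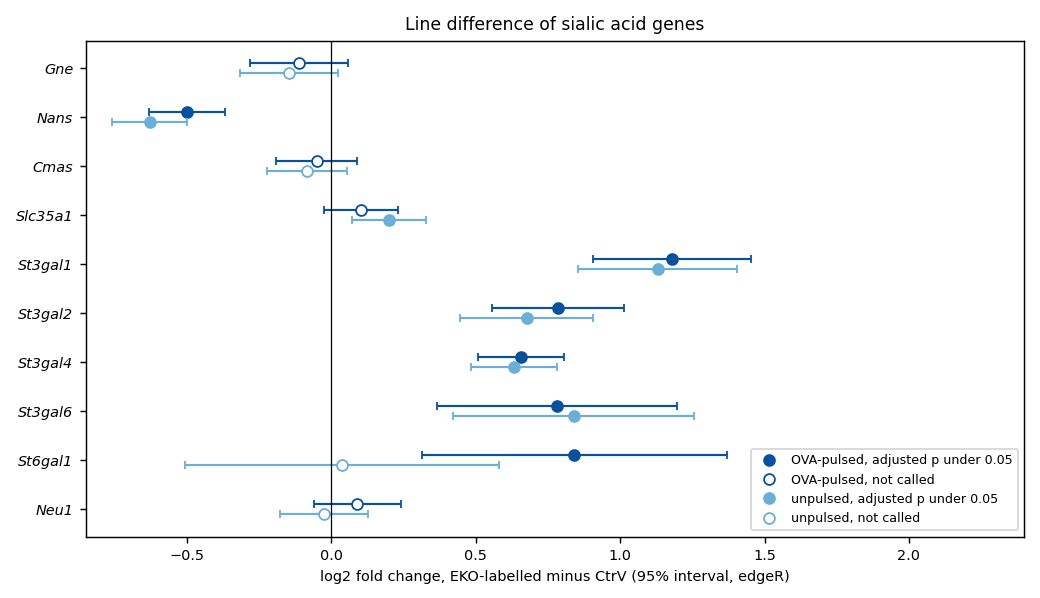
Log2 fold change of EKO-labelled over CtrV cells for the 10 genes in OVA-pulsed (dark) and unpulsed (light) cells, with 95% intervals from edgeR; filled points have an adjusted p under 0.05. The 4 St3gal genes lie between 0.63 and 1.18, Nans lies at -0.50 and -0.63, and St6gal1 is filled only with OVA.

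St6gal1 (ENSMUSG00000022885; chromosome 16, 23224740 to 23360350, plus strand) encodes the α2,6-sialyltransferase of lactosamine chains, which makes the ligand of CD22. It was the least abundant of the 10 genes. CtrV cells had 5.99, 5.87 and 6.08 CPM unpulsed and 6.16, 4.14 and 3.78 CPM with OVA. EKO-labelled cells had 11.8, 4.19 and 4.13 CPM unpulsed and 12.9, 6.08 and 6.70 CPM with OVA. In unpulsed EKO-labelled cells culture 1 was above and cultures 2 and 3 were below every unpulsed CtrV culture, and with OVA the lines overlapped through CtrV culture 1. The gene was called higher with OVA (log2 fold change 0.84, SE 0.24, adjusted p = 0.014) but not without (0.04, 95% interval -0.51 to 0.58, adjusted p = 0.92). The call with OVA was lost without the replicate block (0.87, adjusted p = 0.11), without OVA-pulsed CtrV culture 1 (0.74, adjusted p = 0.069) and without OVA-pulsed EKO-labelled culture 1 (0.74, adjusted p = 0.073). Without both EKO-labelled cultures 1 the value was 0.56, and called (adjusted p = 0.015). In unpulsed cells it was then -0.41 (adjusted p = 0.06), and averaged over pulsing 0.07 (adjusted p = 0.61) in place of 0.44 (adjusted p = 0.046).

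**Figure D3:**
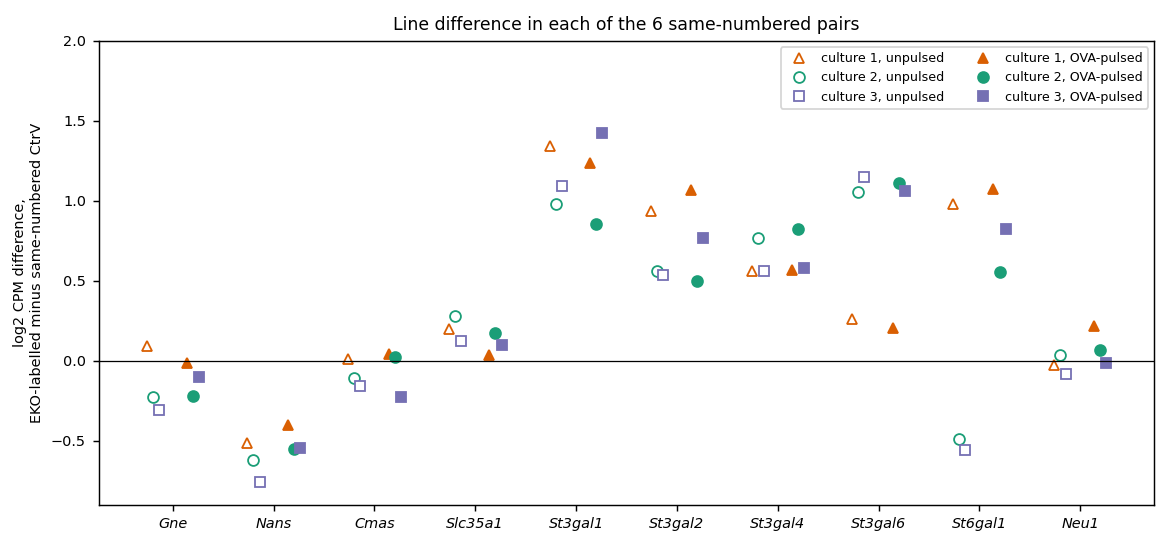
Difference in log2 CPM between each EKO-labelled culture and the CtrV culture of the same number, for the 10 genes; triangles, circles and squares are cultures 1, 2 and 3, open without and filled with OVA. All 6 pairs are above 0 for Slc35a1 and the 4 St3gal genes and below 0 for Nans, and culture 1 departs from cultures 2 and 3 for St3gal6 and, unpulsed, for St6gal1.

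Neu1 (ENSMUSG00000007038; chromosome 17, 34931253 to 34935953, plus strand) encodes the lysosomal sialidase. Its level spanned 30.2 to 37.2 CPM in CtrV (median 33.2) and 32.2 to 36.8 CPM in EKO-labelled libraries (median 33.5), so the lines overlapped almost fully. The log2 fold change was 0.09 with OVA (95% interval -0.06 to 0.24, adjusted p = 0.30) and -0.02 without (-0.18 to 0.13, adjusted p = 0.79), and 3 of the 6 pairs were higher. These intervals exclude a change in Neu1 of the size seen for any of the 4 St3gal genes.

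The EKO-labelled cultures numbered 1, which also stood apart along the second principal component, differed from the other EKO-labelled cultures in both directions among the 5 transferases. They were higher than the other EKO-labelled cultures for St3gal1 (mean 208 against 144 CPM), for St3gal2 (146 against 97.9 CPM) and for St6gal1 (12.4 against 5.28 CPM). They were lower for St3gal4 (108 against 128 CPM) and for St3gal6 (48.2 against 78.3 CPM). For each of these 5 genes both cultures 1 lay outside the range of the other 4 EKO-labelled libraries, as they also did, above it, for Gne (38.6 against 32.2 CPM) and Nans (95.3 against 90.4 CPM). Cmas, Slc35a1 and Neu1 overlapped. In CtrV cells, cultures 1 lay above the other 4 libraries for St3gal2 and St3gal6 and below them for Cmas, and they overlapped them for the other genes. Leaving out both EKO-labelled cultures 1 kept the same 6 calls in OVA-pulsed cells and gave 7 in unpulsed cells, the 6 of the full data and Gne. The share of all tested genes called in that fit is not given here, so the added call does not set Gne apart.

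To compare amounts between genes, counts were expressed per kilobase of the union of annotated exons (RPKM). In unpulsed CtrV cells Nans had the highest level, 30.2 ± 1.29 RPKM (SD, n = 3), followed by St3gal4 with 26.8 ± 2.42, and these overlapped. St3gal2 (13.2 ± 0.818 RPKM), then St3gal1, Cmas and Neu1, which overlapped in turn (9.02 to 10.3 RPKM), came next. Slc35a1 (6.74 RPKM), St3gal6 (6.26 RPKM) and Gne (5.89 RPKM) followed, the last pair overlapping, and St6gal1 was lowest at 1.22 ± 0.0213 RPKM. In unpulsed EKO-labelled cells St3gal4 was alone at the top with 41.6 ± 4.82 RPKM. St3gal1 (22.9 ± 4.46 RPKM), St3gal2 (21.5 ± 4.91 RPKM) and Nans (19.5 ± 1.08 RPKM) overlapped below it, and St6gal1 was again lowest at 1.36 ± 0.898 RPKM. With the length of the longest transcript in place of the exon union, Nans stood second in these cells, at 34.4 RPKM.

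Summed over the 4 St3gal genes, the level was 54.3 to 61.1 RPKM in the 6 CtrV libraries (median 56.6) and 93.9 to 109.7 RPKM in the 6 EKO-labelled libraries (median 99.0). St3gal4 made up the largest share in every library, 41.7% to 51.6% in CtrV and 34.5% to 46.2% in EKO-labelled cells. The share of St3gal1 was 15.4% to 23.1% in CtrV and 19.9% to 30.3% in EKO-labelled cells, with the highest values in EKO-labelled cultures 1. The shares thus overlapped between the lines while the sums did not. Each of the 4 genes was already higher in every EKO-labelled library, so the sums could not overlap and add no separate result. Cultures 1 of EKO-labelled cells had more St3gal1 and St3gal2 and less St3gal4 and St3gal6, and their sums were 98.6 RPKM without and 109.7 RPKM with OVA, against 93.9 to 100.5 RPKM in the other 4 EKO-labelled libraries.

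**Figure D4:**
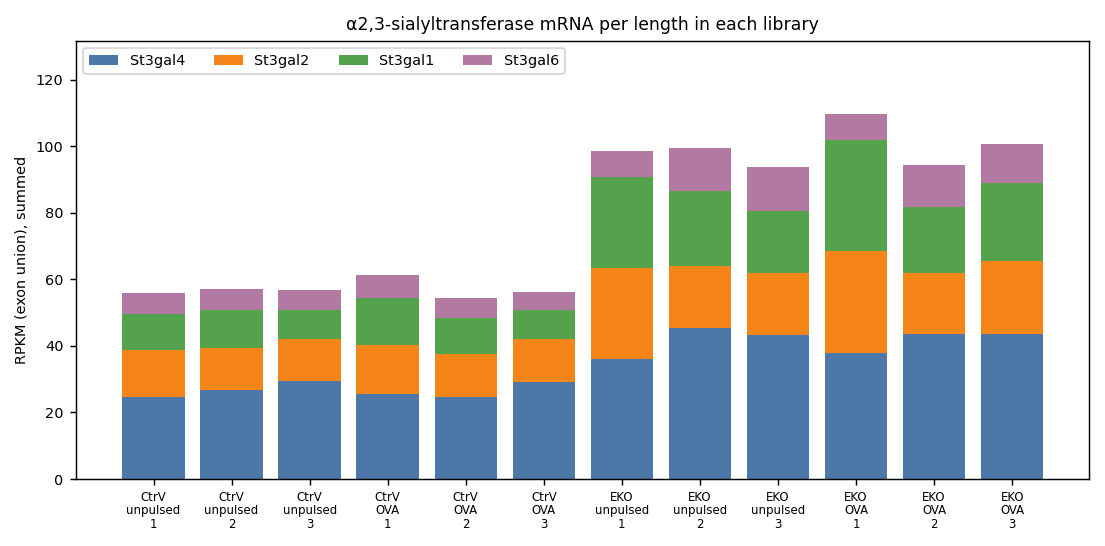
RPKM of the 4 St3gal genes stacked for each of the 12 libraries, on an axis that starts at 0; the bar height is their sum. CtrV libraries reach 54.3 to 61.1 and EKO-labelled libraries 93.9 to 109.7, with wider St3gal1 and St3gal2 segments in EKO-labelled cultures 1.

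OVA pulsing was compared within each line. None of the 10 genes was called in CtrV or in EKO-labelled cells, by edgeR or by DESeq2. By edgeR 0% of all tested genes were called in either line. At an unadjusted p under 0.05 there were 0 of the 10 genes in CtrV cells, against 1.64% of all tested genes. In EKO-labelled cells there was 1, Slc35a1 (log2 fold change -0.14, unadjusted p = 0.038), against 2.8%. The St3gal genes changed by -0.03 to 0.10 on the log2 scale in CtrV cells and by -0.09 to 0.15 in EKO-labelled cells on pulsing.

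Whether the difference between the lines depended on pulsing was tested directly. By edgeR no gene was called (0% of all tested genes), nor was any of the 10 by DESeq2, and 1 of the 10, St6gal1, had an unadjusted p under 0.05, against 1.91% of all tested genes. For St6gal1 the difference was larger with OVA by 0.80 on the log2 scale (95% interval 0.05 to 1.56, unadjusted p = 0.039, adjusted p = 1). The calls of Slc35a1 without OVA and of St6gal1 with OVA are therefore not shown to be particular to those treatments. For Nans the line difference changed by 0.13 with pulsing (-0.06 to 0.31), and for St3gal1 by 0.05 (-0.34 to 0.43).

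Other genes of the route were counted in OVA-pulsed cells, from lists that were compiled by hand, against the 25.1% higher and 21.9% lower among all tested genes. Among 10 genes of supply and breakdown, 7 were tested, and EKO-labelled cells had more mRNA of 2, a share close to that of all tested genes, and less of 3. Without OVA it was 2 and 4, against 24.5% and 21.9% of all tested genes. Those higher were Gfpt1, which starts the hexosamine route (log2 fold change 0.52, SE 0.12, adjusted p = 0.0046), and Gnpnat1, an acetyltransferase of the same route (0.49, SE 0.08, adjusted p = 0.00075). Those lower were Nanp, the phosphatase that acts after Nans (-0.40, SE 0.11, adjusted p = 0.016), and Renbp, a GlcNAc epimerase (-0.21, SE 0.08, adjusted p = 0.039). Uap1, which forms UDP-GlcNAc, was also lower (-0.20, SE 0.08), with an adjusted p that rounds to the threshold of 0.05. Nanp, at 6.74 to 8.25 CPM in CtrV and 4.44 to 6.11 CPM in EKO-labelled libraries, thus fell as Nans did, and the lines did not overlap. Cmah, the hydroxylase that turns Neu5Ac into Neu5Gc in most mammals, did not exceed 0.0705 CPM in any library, which is below the level of 3 counts.

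Among 15 further sialyltransferases, 6 were tested, and EKO-labelled cells had more mRNA of 3 and less of 1, against 25.1% and 21.9% of all tested genes. Without OVA it was 2 and 0, against 24.5% and 21.9% of all tested genes. St3gal3, which acts mainly on lactosamine chains, had a log2 fold change of 0.58 (SE 0.14, adjusted p = 0.0055). St3gal5, the GM3 synthase, had 0.48 (SE 0.05, adjusted p = 3.3e-05), and St8sia4, a polysialyltransferase, had 0.53 (SE 0.18, adjusted p = 0.03). St8sia1, the GD3 synthase, had -0.33 (SE 0.10, adjusted p = 0.02). St3gal3 and St8sia4 were highest in EKO-labelled cultures 1, at 46.8 and 169.8 CPM with OVA, against 28.0 to 35.3 and 95.7 to 103 CPM in the other cultures of that group. For St8sia4 these other cultures overlapped OVA-pulsed CtrV cells (69.7 to 102 CPM), and without OVA the gene was not called (0.33, adjusted p = 0.16). All 6 St3gal genes were thus higher in OVA-pulsed EKO-labelled cells, and the 9 untested sialyltransferases did not exceed 0.131 CPM.

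Among 8 genes of removal and its partners, 6 were tested, with 2 higher and 3 lower, against 25.1% and 21.9% of all tested genes. Without OVA it was also 2 and 3, against 24.5% and 21.9% of all tested genes. Neu3, the sialidase of the plasma membrane, had a log2 fold change of 1.13 (SE 0.26, adjusted p = 0.0044) at a low level, 0.332 to 1.03 CPM in CtrV and 1.38 to 2.31 CPM in EKO-labelled libraries. Casd1, which O-acetylates sialic acid, had 0.37 (SE 0.09, adjusted p = 0.0061), and Siae, which removes such acetyl groups, had -0.53 (SE 0.09, adjusted p = 0.00049). Ctsa and Glb1, the lysosomal partners of Neu1, had -0.18 (SE 0.06, adjusted p = 0.029) and -0.15 (SE 0.05, adjusted p = 0.021). Neu2 and Neu4 had no counts in any library.

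Among 23 genes that build the acceptor chains, 19 were tested, with 7 higher and 6 lower, against 25.1% and 21.9% of all tested genes. Without OVA it was 9 and 7, against 24.5% and 21.9% of all tested genes. The largest changes were in B4galt1, which makes the lactosamine that St3gal4, St3gal6 and St6gal1 use (0.75, SE 0.05, adjusted p = 5.7e-07), B4galt6, a lactosylceramide synthase (-0.73, SE 0.05, adjusted p = 1.2e-06), Fut4, a fucosyltransferase (-0.70, SE 0.16, adjusted p = 0.0043), and B4galt3, a relative of B4galt1 (0.48, SE 0.08, adjusted p = 0.00082). The median log2 fold change was -0.14 for supply and breakdown, 0.25 for the other sialyltransferases, -0.17 for removal and 0.10 for acceptor chains.

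**Figure D5:**
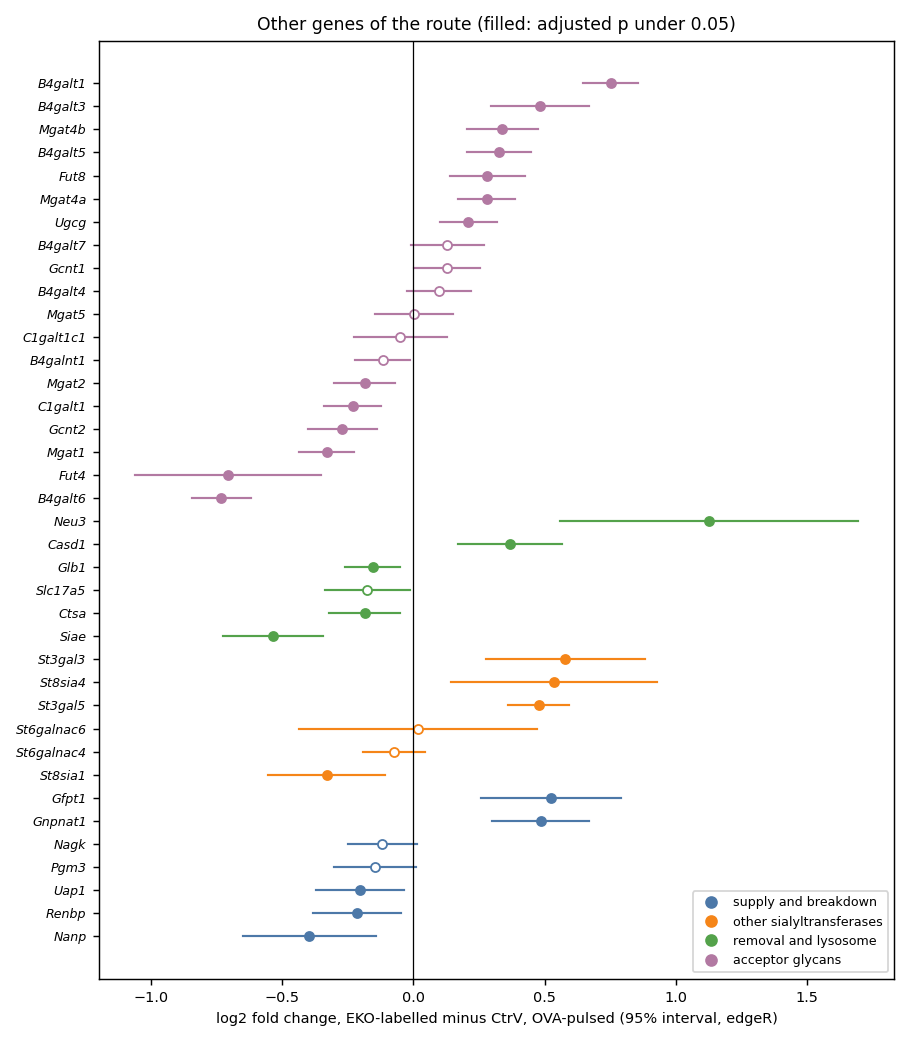
Log2 fold change of EKO-labelled over CtrV cells with OVA, with 95% intervals from edgeR, for the tested genes of the 4 hand-compiled lists, coloured by list; filled points have an adjusted p under 0.05. Neu3 and B4galt1 lie farthest to the right at 1.13 and 0.75, and B4galt6 and Fut4 farthest to the left at -0.73 and -0.70.

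For St3gal1, the gene with the largest change, the 5 tested genes with the most similar log2 CPM over the 12 libraries were Helz2 (Pearson r 0.993), Dennd4a (0.993), Eloa (0.992), Rel (0.991) and Tmcc3 (0.990). Their log2 fold changes averaged over pulsing ran from 0.23 for Eloa to 1.41 for Helz2, and 295 genes had an r above 0.95 with St3gal1. After the mean of each of the 4 groups was taken out, the most similar were Gm15987 (0.988), Fchsd2 (0.987) and Etv3 (0.984). These libraries share the line difference and the departure of EKO-labelled cultures 1, so the values describe a pattern over 12 libraries and no more.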

How the data were processed

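RNA sequencing of 12 Sp37A3 libraries, 3 in each of 4 groups, was analysed, with groups and replicate numbers taken from the sample labels. The deposited table holds unnormalized read counts for each gene. According to the methods and the submitters' processing notes, reads were aligned to mm10 with STAR, with a single location kept for reads that fitted several places, sorted with SAMtools and counted by their 5′ ends on the union of exons with featureCounts. The labels name a stranded kit, and strand use in counting is not given in the sources used here. Names, positions and exon lengths came from GENCODE M21 (GRCm38), not the annotation the authors counted with. 

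Genes that exceeded a log2 CPM of 0 in 2 or more libraries were tested with edgeR 4.0.16 in R 4.3.3 (TMM, quasi-likelihood fit over all 12 libraries, group and replicate number as covariates, as the study's methods state, Benjamini-Hochberg adjustment over 14079 genes, adjusted p under 0.05, no fold limit). The common dispersion was 0.00590. The labels do not say what same-numbered cultures shared, so p-values measure the spread between these cultures, which may be technical. The paper describes a single EKO line, pooled from clones, and a single CtrV line. The p-values therefore do not cover variation between independently made lines or between clones. An effect of targeting Siglece and any other difference between these lines cannot be told apart. Deviations of same-numbered OVA-pulsed libraries of the lines had correlations of 0.45, 0.29 and 0.29, and unpulsed ones 0.06, -0.01 and 0.26. No pair of replicates differed by as little as sampling noise (chi-square per degree of freedom 4.88 to 45.4). Intervals are 95% intervals of the fit, and the limit of 3 counts covers counting error only.

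Alternatives were RLE and upper-quartile normalization, DESeq2 1.42.0, limma 3.58.1 (voom), no filter, a minimum of 10 counts, no replicate block, the compared libraries alone, stricter limits, and leaving out single libraries or the cultures numbered 1. The 10 genes, the lists and the tests were chosen with earlier results of these data known. All 10 genes are named whatever their values, the listed genes where called in OVA-pulsed cells (acceptor chains up to 4 by size), and the most similar genes by Pearson r, 5 on levels and 3 on deviations. Cmah, Neu2, Neu4, Trim14, 4930581F22Rik and Dcbld2 were named after their values were seen.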

Additional observations from a re-analysis of the deposited data

How the results depend on the processing

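When an absolute log2 fold change over 1 was also required, 1 of the 10 genes, St3gal1, was called in each of the 3 comparisons of the lines. The number of the 10 genes called stayed between 5 and 6 with OVA, 5 and 7 without and 6 and 7 on average when single libraries were left out, and 0 for pulsing and its interaction with the line. The share of all tested genes is not given here for the fold limit or for these fits, so these counts do not set the 10 genes apart. Without the replicate block 5, 6 and 6 of the 10 genes were called, St6gal1 being lost with OVA and on average (0.51, adjusted p = 0.15), and no other call for the 10 genes changed. In that fit the SE with OVA was 0.217 for St3gal1 and 0.181 for St3gal2, against 0.124 and 0.104 in the main fit. For Nans it stayed at 0.059. Of all tested genes, 5413 were then called with OVA and 5337 without, against 6619 and 6537 in the main fit. With DESeq2 6, 5 and 7 of the 10 genes were called. Of all tested genes, 5828, 5784 and 7751 were called by DESeq2, against 6619, 6537 and 8512 in the main fit. St3gal1, St3gal2, St3gal4, St3gal6 and Nans kept their direction and call under each of the other settings, with an adjusted p of at most 0.044, for St3gal6 with OVA without CtrV replicate 2. The call of St6gal1 averaged over pulsing was lost in 12 of 21 settings, among them those without culture 1 of unpulsed cells of either line or any 1 of the OVA-pulsed cultures (adjusted p = 0.056 to 0.13), and its call with OVA was the one lost without culture 1 of OVA-pulsed CtrV or EKO-labelled cells. Its change in unpulsed cells turned to -0.013 under upper-quartile normalization, -0.015 in DESeq2, -0.41 without both EKO-labelled cultures 1 and -0.52 (adjusted p = 0.0063) without all 4 cultures 1, and ranged from -0.33 to 0.23 when single libraries were left out, being negative without CtrV or EKO-labelled replicate 1. For Neu1 the averaged change turned to -0.011 under upper-quartile normalization, and the unpulsed change ranged from -0.085 to 0.035 when single libraries were left out. For Cmas with OVA that range was -0.11 to 0.020. Neither gene was called in any of these. The cause of these turns was not tested.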
